A study of Mus musculus and Homo sapiens with 180 samples.

Results

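MOLM13 cells that lack both PCGF1 and BCOR were compared with control MOLM13 cells after the Menin inhibitor VTP50469 had been given and then removed. The libraries were chosen by their labels: 3 PCGF1/BCOR KO and 3 control libraries from cells that received 500 nM VTP50469 for 96 h and were then kept for 96 h without drug. They are 6 of the 180 samples of the series. MOLM13 is a human acute myeloid leukaemia line that carries an MLL-AF9 fusion. According to the study's methods the cells express Cas9, and gene-specific guides or a control guide were introduced by lentivirus into polyclonal populations, so that edited and unedited cells may be mixed. The labels give the organism as mouse, whereas the gene names counted are human. The question asked was whether genes silenced by the inhibitor come back when it is removed, with and without the Polycomb complex PRC1.1. Another 18 libraries of the same table, in 6 groups of 3, are used where they show how the washout libraries differ: control and PCGF1/BCOR KO cells in DMSO (labelled Washout DMSO), at the end of 96 h of 500 nM VTP50469, and 48 h after its removal. The labels give 96 h for the DMSO libraries, which matches the end of treatment in time and not the washout that followed it. All 8 groups are of the same line, and a control guide is present wherever the PCGF1 and BCOR guides are absent.

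PRC1.1 is a variant of Polycomb repressive complex 1 in which PCGF1, a RING finger protein, and BCOR, its corepressor partner, are held together with the CpG-binding protein KDM2B and the ubiquitin ligase subunits RING1 and RNF2. The complex places ubiquitin on histone H2A at CpG-rich promoters, a mark that is read by PRC2, which methylates lysine 27 of histone H3. In leukaemias with an MLL fusion, Menin tethers the fusion protein to genes such as MEIS1 and the HOXA cluster, which keep the cells in an immature state, and Menin inhibitors release it.

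The guides that define the knockout are shown with the base triplet next to each target, the PAM that Cas9 needs, in capitals. They were matched to GRCh38 and to the canonical transcript of each gene. Which of them were combined for the double knockout is not stated in the sources used here.
PCGF1 guide 1: ggggcagtacttgctagttTGG
PCGF1 guide 2: gaggtacgccatctccggAGG
BCOR guide 1: gggtcaatccttacatggAGG
BCOR guide 2: gcgcaatggacgagaggcGGG
The first PCGF1 guide matches the coding part of exon 3 of 9 at chr2:74506835-74506853 on the plus strand, and the second that of exon 7 of 9 at chr2:74505591-74505608 on the minus strand. Both BCOR guides match the coding part of exon 4 of 15, at chrX:40074757-40074774 on the minus strand and at chrX:40074498-40074515 on the plus strand. PCGF1 and BCOR both lie on the minus strand.

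RNA was counted by 3′ RNA-seq, in which reads come from the polyadenylated end of a transcript. The 3 control washout libraries held 1717921, 4201931 and 4876584 reads on named genes, and the 3 KO washout libraries 10139313, 6869382 and 6729733, which is 2.2 times as many in sum. DMSO libraries held 21732246 to 47065530. Control replicate 1 stands apart: 26.7% of its reads came from protein genes of the mitochondrial genome, against 2.39% to 5.42% in the other 5 washout libraries and at most 20.5% in the other 23 libraries of the experiment. Levels are given as CPM, the reads of a gene scaled to a common library total after TMM normalization, and 1 read was worth 0.613 CPM in control replicate 1 and 0.231 CPM in the other control replicates. Intervals and limits that rest on few reads cover counting error only. Fewer cells of a type and less RNA per cell cannot be told apart in such bulk libraries. The myeloid label was checked against CD33, with 41 to 394 reads per control and 355 to 625 per KO washout library, and LYZ, with 1768 to 42087 and 14535 to 28784. The T cell marker CD3E had at most 1 read, and MS4A1, a B cell marker, had none.

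The targeted transcripts did not separate the genotypes. PCGF1 was at 0, 0.925 and 0.461 CPM in the control washout libraries and at 0, 0.57 and 0 CPM in the KO libraries, 6 and 4 reads in all. BCOR was at 21.5, 16.9 and 17.3 CPM in control and at 18, 23.2 and 16.5 CPM in KO cells (edgeR adjusted p = 0.983, log2 fold change 0.06, SE 0.35). PCGF1 was close to the limit of detection in both groups, and the BCOR levels overlapped. The files give no read positions, and counts of reads from the 3′ end do not show whether a guide site was edited, so genotype rests on the label throughout.

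After washout, 117 genes were higher and 56 lower in PCGF1/BCOR KO than in control cells (edgeR quasi-likelihood test, Benjamini-Hochberg adjusted p under 0.05, the rule by which a gene is named as called below), which is 1.36% of the 12741 genes tested. The rises made up 0.918% and the falls 0.44%. Same-numbered control and KO libraries deviated together. A fit that blocks on the replicate number gave 240 rises (1.88%) and 169 falls (1.33%), 3.21% in all, and all 173 genes were called in both fits and in the same direction. The levels of the 3 KO and 3 control libraries did not overlap for 116 of the 117 higher and 52 of the 56 lower genes. Over all genes tested, 7.87% were higher and 4.09% lower without overlap. The higher genes had a median log2 fold change of 4.2, or 3.76 with the 26 genes that had no read in control cells set to the bound that 3 reads allow. The lower genes had a median of −3.16 by either reckoning, and all genes 0.063. The count of 173 became 102, 111 and 109 without KO replicate 1, 2 and 3. It was 10 when the 6 washout libraries were fitted without the other 18, and 168 when the block was added to that fit.

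Among the MLL fusion target genes tested, the largest fitted rise was that of MEIS1, the HOX cofactor (chromosome 2 from 66433452 to 66573869, plus strand, GRCh38). Its levels were 0, 0.231 and 0 CPM in control cells after washout and 10.6, 19.8 and 19.1 CPM in KO cells. A single read was found in control cells against 380 in KO cells, a ratio of 158 with a 95% counting interval of 28.2 to 6250. Every KO library was far above every control library. The fitted log2 fold change, which depends on the prior count at so few reads, was 7.25 (SE 1.05, edgeR adjusted p = 0.000353). The call was kept in all 17 alternatives that were run, with adjusted p-values up to 0.0425.

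No difference between the genotypes was detected for MEIS1 without drug. In DMSO, MEIS1 was at 24.1, 23 and 30.2 CPM in control and 24.1, 22.1 and 25.9 CPM in KO cells (log2 fold change −0.1, edgeR adjusted p = 1). At the end of 96 h of drug it was at 0.148, 0 and 2.73 CPM in control and 3.52, 6.34 and 1.49 CPM in KO cells, with overlap (log2 fold change 1.56, edgeR adjusted p = 0.521). By 48 h of washout it was at 0.841, 0.354 and 0.569 CPM in control and 8.26, 4.16 and 6.32 CPM in KO cells (edgeR adjusted p = 0.0213). Control levels thus stayed below 1 CPM at both washout times, while KO levels lay above all of them. After 96 h of washout KO cells were at 16.5 ± 5.15 CPM (SD, n = 3) against 24.1 ± 1.91 CPM in DMSO, a log2 difference of −0.55 (SE 0.61, edgeR adjusted p = 0.734). In control cells the fitted difference from DMSO was −7.9 (edgeR adjusted p = 0.000157). The rise of MEIS1 in KO cells from the end of treatment to 96 h of washout was 2.33 on the log2 scale, with an edgeR adjusted p = 0.0885, and 0.0163 with the replicate block. The difference between genotypes was larger after washout than in DMSO (log2 7.35, SE 1.25, edgeR adjusted p = 0.00773), a call that was lost without control replicate 3 (adjusted p = 0.0731).

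**Figure D1:**
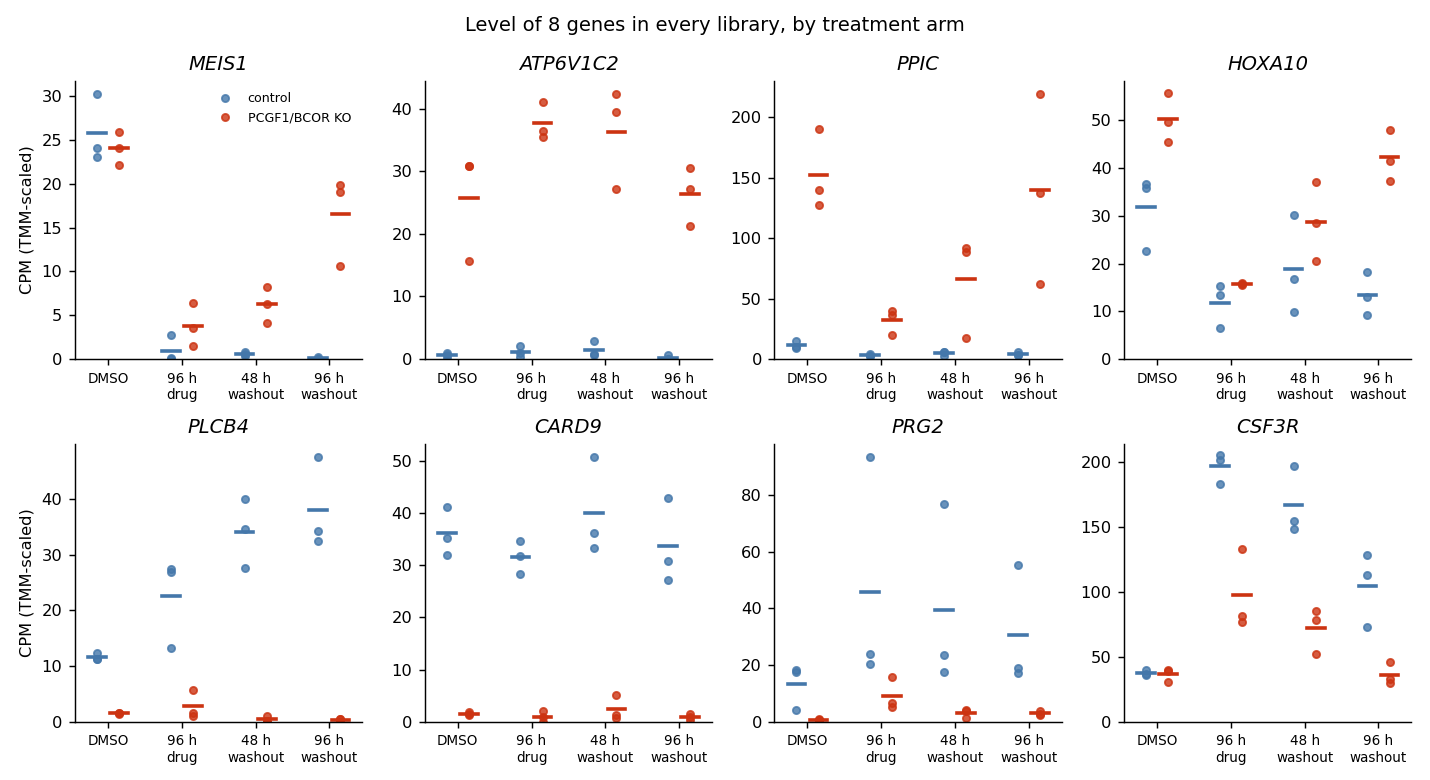
Level in CPM (TMM-scaled, linear axis) of 8 genes in each of the 24 MOLM13 libraries, by treatment arm, with control in blue and PCGF1/BCOR KO in red. Points are libraries and horizontal bars are means of 3. MEIS1 is near 0 in control cells after washout and at 10.6 to 19.8 CPM in KO cells, while both genotypes are at 22.1 to 30.2 CPM in DMSO.

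Among the 10 HOXA genes tested, 1 rose, none fell, and the median log2 fold change was 1.61, against 0.063 over all genes. Rises made up 0.918% and falls 0.44% of all genes tested. HOXA2, HOXA3, HOXA5, HOXA6, HOXA7 and HOXA9 had between 0 (HOXA5) and 9 (HOXA9) reads in all control washout libraries together. A fall could hardly have been seen in these genes, and their fold changes rest on few reads. HOXA10, a posterior HOXA transcription factor, was at 9.2, 13 and 18.2 CPM in control and 41.6, 47.9 and 37.4 CPM in KO cells (edgeR adjusted p = 0.0424, log2 fold change 1.63, SE 0.40). Its levels did not overlap, yet the call was kept in only 5 of 17 alternatives and was lost with any of the 6 washout libraries left out (adjusted p = 0.0522 to 0.183). HOXA11 was at 3.68, 2.78 and 7.61 CPM in control and 18, 13.1 and 11.6 CPM in KO cells. It was not called (edgeR adjusted p = 0.0915), but was with the replicate block (0.0456). HOXA11-AS, the antisense RNA that overlaps HOXA11, was higher as well, at 35.6, 37.9 and 43 CPM in KO cells against 4.29, 7.63 and 9.22 CPM in control (edgeR adjusted p = 0.00142). It was singled out after its values were seen, and because the strand setting of the counts is not stated, reads of HOXA11 and its antisense partner cannot be told apart. HOXA9, the family member best known in MLL leukaemia, was at 0, 0.694 and 1.38 CPM in control and 2.01, 1.85 and 2.7 CPM in KO cells (edgeR adjusted p = 0.719). The groups did not overlap, with 9 reads in control and 53 in KO cells, and the difference did not pass the test.

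Of the 21 MLL fusion target genes tested, MEIS1 alone was called, none fell, and the median was 0.16, against 0.063 over all genes. Among all genes tested 0.918% rose and 0.44% fell. MEF2C, a transcription factor of immature myeloid cells, was at 58.3, 15.3 and 8.99 CPM in control and 95.9, 48.6 and 38.5 CPM in KO cells. The groups overlapped through the high level in control replicate 1, and MEF2C passed only with the replicate block (edgeR adjusted p = 0.549 without and 0.0402 with it). FLT3, a growth factor receptor, was at 57, 53.7 and 42.2 CPM in control and 59, 61.5 and 67.1 CPM in KO cells (edgeR adjusted p = 0.808, log2 fold change 0.30, SE 0.30). Of 11 human counterparts of genes that the study describes for murine cells, MEIS1 and MAN1A1 rose and none fell by edgeR. EMB, which encodes embigin, was at 109, 209 and 144 CPM in control and 64.6, 115 and 79.4 CPM in KO cells, with overlap (log2 fold change −0.84, edgeR adjusted p = 0.329), and DESeq2 called it lower (adjusted p = 0.0471). The paper reports EMB, with MEIS1, as rescued by PRC1.1 loss in all its leukaemia models, MOLM13 included. That result is for PCGF1 KO cells under treatment, not after washout. In control cells here the drug lowered EMB (log2 fold change −1.55, edgeR adjusted p = 0.00424). MAN1A1, a Golgi mannosidase that trims N-glycans, was at 0, 1.16 and 0 CPM in control and 10.8, 9.26 and 12.1 CPM in KO cells (edgeR adjusted p = 0.0424). MAN1A1 was already higher in KO cells in DMSO, with means of 4.34 and 0.0714 CPM (edgeR adjusted p = 0.00631), and its log2 change with the drug in control cells was 2.08 (edgeR adjusted p = 0.203). With single washout libraries left out, MAN1A1 missed the threshold in 5 of 6 fits, all but the one without control replicate 2 (adjusted p = 0.0735 to 0.151).

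The rises of largest size were taken among called genes with a mean of at least 10 CPM and no overlap between genotypes. They were in genes nearly silent in control cells. TBC1D4, a Rab GTPase-activating protein of glucose uptake, had no read in any control washout library and was at 15.8, 21.4 and 8.43 CPM in KO cells, at least 53.2-fold higher when 3 reads over the group are allowed (edgeR adjusted p = 0.000214). MSRB3, a methionine sulfoxide reductase, was likewise without a read in control and at 11.5, 16.7 and 11.3 CPM in KO cells, at least 44.3-fold higher (edgeR adjusted p = 0.0024). P3H3, of the collagen prolyl hydroxylase family, was at 15.3, 7.41 and 14.6 CPM in KO cells and had no control read, at least 44.2-fold higher (edgeR adjusted p = 7.51e-05). That their levels did not overlap between genotypes was a condition for naming these 3 genes. ATP6V1C2, a subunit of the proton pump of acidic organelles, was at 0.613, 0 and 0 CPM in control and 30.6, 27.2 and 21.2 CPM in KO cells. That is 1 read against 675 (ratio 280, 95% counting interval 50.2 to 11100, edgeR adjusted p = 5.36e-05).

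PPIC and RAB34, also among the 12 largest rises under the same limits, were detected in every control library. PPIC, a cyclophilin, was at 3.07, 3.7 and 5.53 CPM in control and 62.4, 219 and 137 CPM in KO cells (log2 fold change 5.05, edgeR adjusted p = 5.93e-05). RAB34, a small GTPase of cilium formation, was at 4.29, 0.694 and 1.15 CPM in control and 42.6, 82.9 and 51.4 CPM in KO cells (log2 fold change 5.12, edgeR adjusted p = 4.41e-05). In both genes the lowest KO library was many times the highest control library. Beside MEIS1, the others of the 12 were TLCD3A, HOXC10, the cyclin CCNO, TIAM1 and TRIO. Their KO means lay between 10.5 CPM (TIAM1) and 14.2 CPM (TRIO), and their control means between 0.154 CPM (TLCD3A) and 0.562 CPM (TRIO). With 2 reads in control cells against 266, TLCD3A had a ratio of 55.3 (95% counting interval 15.1 to 459), and CCNO, with 3 against 302, a ratio of 41.8 (14.2 to 204). CCNO missed the threshold without control replicate 2 (edgeR adjusted p = 0.0561).

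Several rises were in developmental regulators that blood cells normally keep silent. Of 102 such transcription factors outside the HOX clusters 21 were high enough to be tested. Of these DLX4, PAX6 and TWIST1 rose and none fell, while over all genes tested 0.918% rose and 0.44% fell. No read was found in control washout cells for 4 of the 21, so a fall could not have been seen in them. The median log2 fold change was 0.83, or 0.73 with genes lacking control reads at their bound. TWIST1, a regulator of mesenchymal cells, was at 0, 0.925 and 1.84 CPM in control and 7.06, 12 and 7 CPM in KO cells (log2 fold change 3.00, edgeR adjusted p = 0.0203). PAX6, of eye and brain development, had no control read and was at 1.83, 3.85 and 6.68 CPM in KO cells, at least 12.5-fold higher (edgeR adjusted p = 0.0334). DLX4, a homeobox factor, had 1 control read against 82 in KO cells, where it was at 4.36, 3.42 and 1.27 CPM (ratio 34.1, 95% counting interval 5.95 to 1360, edgeR adjusted p = 0.0271). The libraries of these factors did not overlap. Their calls were lost in single fits with a library left out: DLX4 without replicate 1 or 2 of either genotype (edgeR adjusted p = 0.0639 to 0.109), PAX6 in all but the fit without KO replicate 1 (0.0669 to 0.114), and TWIST1 without replicate 1 or 2 of control or replicate 2 of KO cells (0.0559 to 0.0907). HOXC10 was the only gene of the 3 tested from the other HOX clusters that was called. It was at 1.23, 0 and 0 CPM in control and 15.7, 16.2 and 6.84 CPM in KO cells (edgeR adjusted p = 0.00831). LIN28B, an RNA-binding protein of fetal stem cells, was at 0, 0.231 and 1.15 CPM in control and 14.6, 7.55 and 8.43 CPM in KO cells (log2 fold change 4.20, edgeR adjusted p = 0.00845). CCND2, a D-type cyclin, was at 2.45, 3.47 and 0.461 CPM in control and 8.46, 22.1 and 19.1 CPM in KO cells (log2 fold change 2.98, edgeR adjusted p = 0.00824). CCND2 was the only one of 11 cyclins, CDK4/6 genes and CDK inhibitors to be called. LIN28B was not called without control replicate 2 (edgeR adjusted p = 0.0588), nor HOXC10 without control replicate 2 or 3 (0.0568 and 0.0563). PAX6, HOXC10 and LIN28B were already called higher in KO cells in DMSO (edgeR adjusted p = 0.00227, 0.000286 and 0.000262), and TWIST1, DLX4 and CCND2 were not.

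The falls of largest size were taken under the same limits on level and overlap. Among them, PLCB4 and CARD9 were low in KO cells in every arm. PLCB4, a phospholipase C, was at 34.3, 47.6 and 32.5 CPM in control and 0, 0.427 and 0.477 CPM in KO cells after washout (log2 fold change −7.12 with an SE of 0.81, edgeR adjusted p = 3.7e-05). CARD9, an adapter of innate immune signalling, was at 42.9, 27.1 and 30.7 CPM in control and 0.262, 0.855 and 1.43 CPM in KO cells (log2 fold change −5.36 with an SE of 0.64, edgeR adjusted p = 4.41e-05). Both genes, for which absence of overlap was a condition of being named, were called in all 17 alternatives. RNF175 was at 11, 15 and 7.15 CPM in control cells and had no read in KO cells, at least 91.5-fold lower (edgeR adjusted p = 0.000486). PRG2, the eosinophil granule major basic protein, was at 19, 55.3 and 17.1 CPM in control and 2.27, 2.71 and 3.82 CPM in KO cells (log2 fold change −3.39, edgeR adjusted p = 0.019). Control levels of PRG2 varied widely among themselves, and that they lay above all KO levels was a condition for naming it. C3, the complement protein, GSG1 and the semaphorin SEMA4A completed the falls of largest size outside the granule genes, with log2 fold changes of −5.67, −4.28 and −3.32 (edgeR adjusted p = 0.0269, 0.0442 and 0.0483). The calls of PRG2 and C3 were lost in 4 of the 6 fits with a library left out (adjusted p up to 0.113 and 0.132), PRG2 without any KO library or control replicate 2 and C3 without any KO library or control replicate 1. GSG1 was lost without KO replicate 1 or 3 or control replicate 2 or 3 (up to 0.176), and SEMA4A in all fits but that without control replicate 2 (up to 0.178).

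Myeloid differentiation genes went both ways. Of 15 granulocyte markers tested, 4 fell (CSF3R, CAMP, LTF and LCN2) and 1 rose (MPO), and of 20 monocyte and macrophage markers 4 fell (S100A8, S100A9, S100A12 and FCN1) and none rose. Their medians were −0.46 and −0.88, against 0.063 over all genes tested, of which 0.918% rose and 0.44% fell. CSF3R, the receptor of granulocyte colony-stimulating factor, was at 128, 72.8 and 113 CPM in control and 33.1, 29.5 and 45.8 CPM in KO cells (log2 fold change −1.53, edgeR adjusted p = 0.0176). MPO, myeloperoxidase of the primary granules, was at 92, 94.8 and 103 CPM in control and 349, 359 and 376 CPM in KO cells (log2 fold change 1.91 with an SE of 0.34, edgeR adjusted p = 0.00304). The 3 libraries of each genotype lay close together for MPO, and the genotypes were far apart. LYZ, the lysozyme of monocytes, had means of 5240 and 2720 CPM and did not pass the test (edgeR adjusted p = 0.682). PECAM1, a surface molecule listed here for endothelial cells and also made by leukocytes, was at 76, 94.1 and 67.1 CPM in control and 25.6, 31.9 and 22.1 CPM in KO cells (log2 fold change −1.57, edgeR adjusted p = 0.0322). CSF3R was not called without control replicate 1 or 3 or KO replicate 1 or 2 (edgeR adjusted p = 0.0542 to 0.11), PECAM1 without replicate 1 of either genotype, control replicate 2 or KO replicate 3 (0.0507 to 0.165), nor FCN1 without any KO library or control replicate 1 (0.0507 to 0.0808). With the block, ITGAX and MARCO, both of macrophages, were also lower and CEBPE, a granulocyte transcription factor, higher (edgeR adjusted p = 0.0315, 0.0167 and 0.00697).

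Of 9 erythroid markers tested, 3 haemoglobin genes fell (HBB, HBA1 and HBA2), none rose, and the median was −1.88. Over all genes tested 0.44% fell, 0.918% rose, and the median was 0.063. The other haemoglobin genes, HBD, HBG1, HBG2 and HBZ, did not pass the test (edgeR adjusted p = 0.477, 0.718, 0.409 and 0.745). HBB was at 107, 27.5 and 36.7 CPM in control and 5.41, 6.41 and 11 CPM in KO cells (log2 fold change −2.90, edgeR adjusted p = 0.00845). HBA1 and HBA2, near-identical copies whose reads may be shared, fell as well (log2 fold changes −2.63 and −3.08, edgeR adjusted p = 0.0203 and 0.00766). S100A9, a calcium-binding protein of neutrophils and monocytes, was at 155, 54.6 and 66.6 CPM in control and 4.88, 4.13 and 6.05 CPM in KO cells (log2 fold change −4.19, edgeR adjusted p = 2.03e-05). DEFA3, a neutrophil defensin with a near-identical copy in DEFA1, was at 195, 65 and 80 CPM in control and 0.872, 1.14 and 1.27 CPM in KO cells (log2 fold change −6.69, edgeR adjusted p = 3.7e-05). HBB and HBA1 were not called without KO replicate 1 or 2 or control replicate 1 (edgeR adjusted p = 0.0577 to 0.0786 and 0.108 to 0.124), nor HBA2 without KO replicate 1 or 2 (0.0599 and 0.0644). For HBB, HBA1, HBA2, S100A9 and DEFA3, control replicate 1, the shallowest library, had the highest level. Other defining red cell genes were nearly absent: GATA1 had 1 to 5 reads per control washout library and none in KO cells, AHSP 1 to 3 and none, and ALAS2 at most 1. The primary granule genes ELANE, AZU1 and DEFA4 had no read in any of the 6 libraries.

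For 10 genes of this kind (S100A8, S100A9, S100A12, DEFA3, CAMP, LTF, LCN2, HBB, HBA1 and HBA2), the number of reads did not follow the depth of the control libraries. S100A9 had 252, 236 and 289 reads, DEFA3 318, 281 and 347, and HBB 174, 119 and 159, although the library totals differed 2.84-fold. Control replicate 1 held 15.9% of all control washout reads and 32% to 50% of the reads of these 10 genes. Among the other 46 lower genes its median share was 15.9%, with a range of 0% to 64%. None of the 10 genes was lower in KO cells at 48 h of washout, whereas all 46 of the others were lower there by sign, and 42 of 46 were lower in DMSO. S100A9, for example, was at 80.1, 75.2 and 59.1 CPM in KO cells at 48 h of washout and at 39.5, 30.4 and 44.9 CPM in control cells, the reverse of the order at 96 h. At the end of treatment all 56 lower genes, these 10 included, were lower in KO cells by sign. S100A8, S100A9, S100A12, DEFA3, HBB, HBA1 and HBA2 were called lower there (edgeR adjusted p = 0.000109 to 0.0379). CAMP and LTF were not (0.21 and 0.121). The part that such reads or the depth play in the fall of these genes was not tested. Without control replicate 1, S100A9, DEFA3 and CAMP were still called, and HBB and HBA1 were not.

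**Figure D2:**
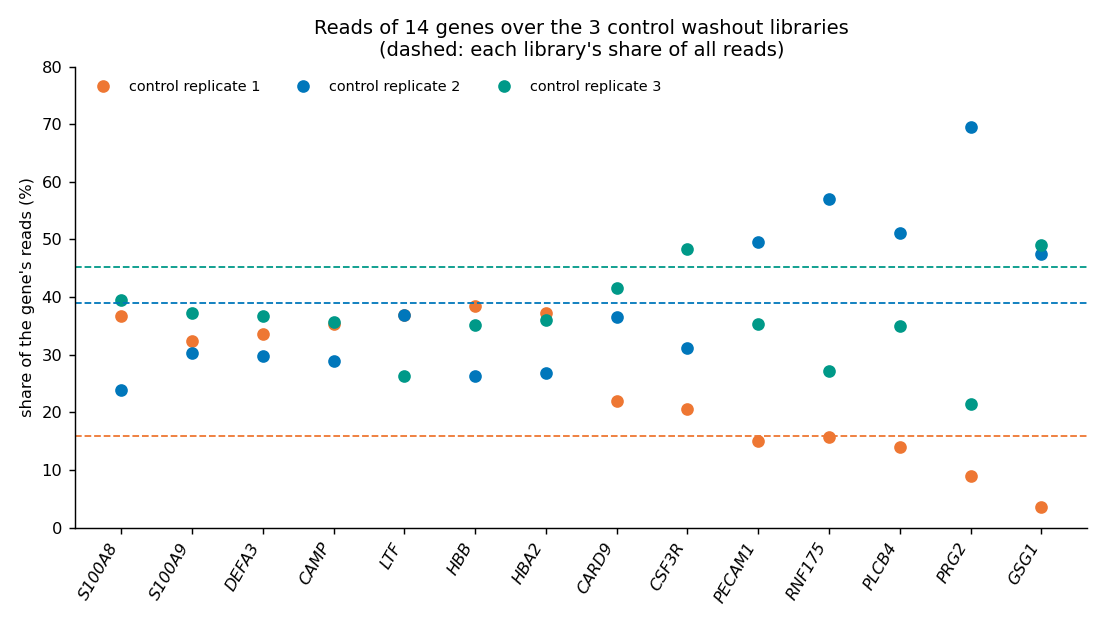
Share of a gene's reads (%, linear axis) found in each of the 3 control washout libraries, for 14 genes lower in KO cells. Points are libraries by colour, and dashed lines give each library's share of all reads. For the 7 granule, S100 and globin genes on the left, control replicate 1 lies well above its share of 15.9%, and for PLCB4, PECAM1 and RNF175 close to it.

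Subunits of the chromatin complexes were not among the calls. None of the 8 PRC1.1 subunits, 14 other PRC1 subunits, 10 PRC2 subunits or 19 genes of the Menin, MLL and DOT1L complexes tested was called by edgeR in either direction, with or without the block, and 0, 0, 1 and 2 of them had an unadjusted p under 0.05. By DESeq2 1 of these genes was called, KMT2B of the last list (lower), and by limma-voom none. Their medians were −0.08, −0.12, 0.29 and −0.24. KDM2B, which brings PRC1.1 to CpG islands, had means of 38 and 32.5 CPM (log2 fold change −0.22, SE 0.32), and SUZ12 of PRC2 58.8 and 71.7 CPM (0.29, SE 0.33). RING1 and RYBP had no read in any washout library and did not enter the test. Whether they are silent or missed by the counting was not tested. None of the 25 cell division genes was called by edgeR, DESeq2 or limma-voom, and none had an unadjusted p under 0.05. Of the 25, 19 had a positive log2 fold change (median 0.30), beside 53.5% of all genes tested (median 0.063). Their summed levels overlapped between genotypes, at 3250 to 4230 CPM in control and 3660 to 5150 CPM in KO cells. None of the 15 apoptosis regulators, 18 cholesterol synthesis genes, 12 cytokine feedback genes, 9 lymphoid or 3 megakaryocyte markers was called by edgeR either, and 0, 0, 1, 1 and 1 of them had an unadjusted p under 0.05. DESeq2 called 1 of all these, the mast cell gene TPSB2, and limma-voom none. Of the 4 MHC class II, 16 interferon-induced and 14 amino acid response genes none was called without the block or by the other tools (2, 3 and 2 had an unadjusted p under 0.05). With the block, CD74 and IFI6 were lower and DDIT4 higher (edgeR adjusted p = 0.0128, 0.0119 and 0.045).

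**Figure D3:**
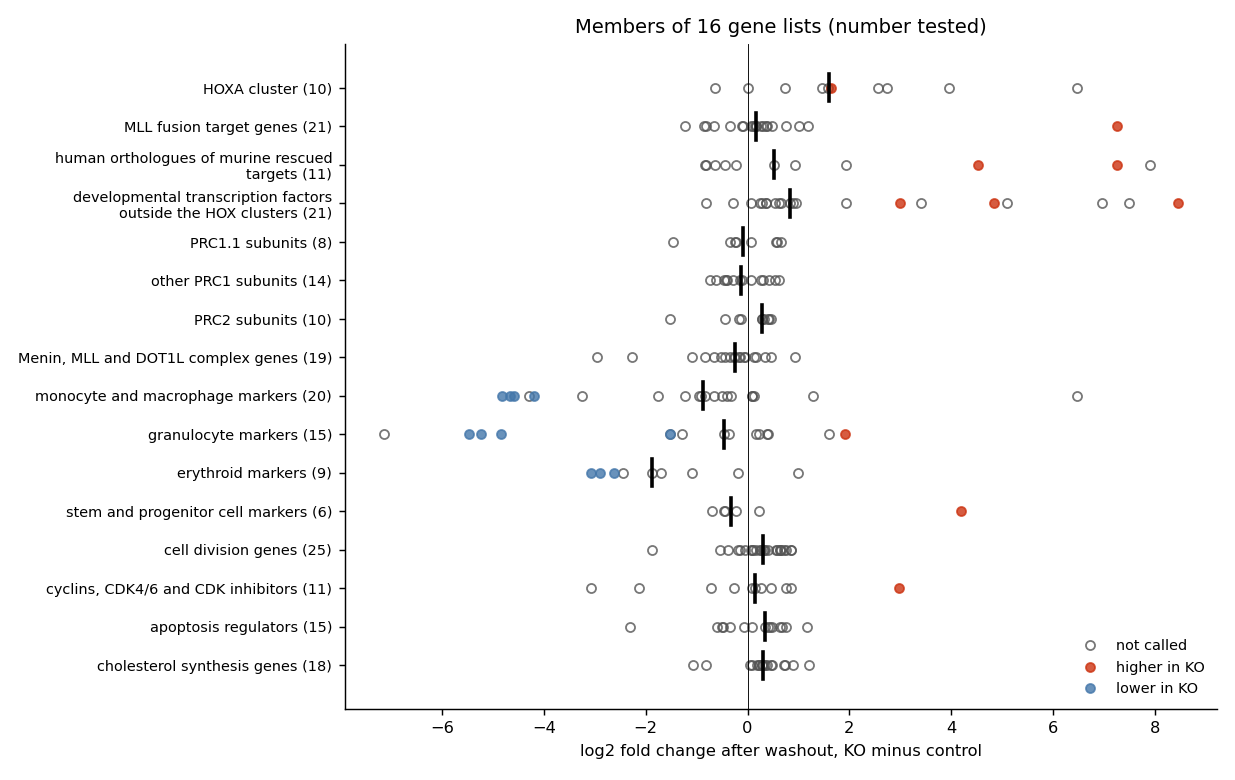
Log2 fold change after washout, KO minus control, of every tested member of 16 gene lists. Circles are genes, filled where called (red higher, blue lower), and black bars are medians over the list. HOXA genes have a median of 1.61 with 1 called, erythroid markers −1.88 with 3 called, and the PRC1.1, PRC2 and Menin lists have no called member.

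The other arms, which share no library with the washout comparison, show which differences were already present. Without drug, KO cells had 122 genes higher and 33 lower than control cells (0.958% and 0.259% of those tested, 1.22% in all). At the end of treatment the counts were 73 and 28 (0.573% and 0.22%, 0.793% in all), and at 48 h of washout 119 and 56 (0.934% and 0.44%, 1.37% in all). Of the 117 genes higher after 96 h of washout, 62 were called higher in DMSO, 54 at the end of treatment and 68 at 48 h, and 116, 114 and 113 had the same sign. Of the 56 lower genes, 14, 15 and 21 were called lower there, and 43, 56 and 46 had the same sign. Opposite calls were found for 3 of the lower genes in DMSO and 7 at 48 h, and for none of the higher genes. RAB34, PPIC, P3H3 and ATP6V1C2 did not overlap between the genotypes in any arm: RAB34 was at 130, 199 and 219 CPM in KO DMSO libraries against 5.02, 5.35 and 8.98 CPM in control. CARD9 was at 35.2, 32 and 41.1 CPM in control DMSO libraries and 1.84, 1.38 and 1.41 CPM in KO. For these genes the genotypes were already apart without drug. Among the other largest rises TBC1D4, MSRB3, TLCD3A, HOXC10, TIAM1 and TRIO were also called higher in DMSO (edgeR adjusted p = 0.000195 to 0.0389). CCNO and MEIS1 were not.

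The difference between genotypes itself differed between washout and DMSO for 11 genes, 1 in the direction of higher and 10 of lower after washout (0.00785% and 0.0785% of those tested, 0.0863% in all). The gene that was higher was MEIS1. The 10 others were DNASE2 and 9 of the granule, S100 and globin genes named above, all but LCN2. DNASE2, a lysosomal nuclease singled out after its values were seen, was at 12.3, 13.6 and 9.22 CPM in control and 41.5, 49 and 46.9 CPM in KO cells after washout, and at 4.88, 4.81 and 5.09 against 83.6, 104 and 89.3 CPM in DMSO. It was higher in KO cells in both arms, and less so after washout (interaction −2.25, edgeR adjusted p = 0.0176, and 0.067 without KO replicate 3). HBB was higher in KO cells in DMSO, at 37.6, 38.6 and 47.6 CPM against 1.13, 1.3 and 1.65 CPM, and lower after washout. With the block 18 genes were called, these 11 among them. The change from the end of treatment to 96 h of washout differed between genotypes for no gene by edgeR (0%), with or without the block, while 577 genes had an unadjusted p under 0.05. DESeq2 called 3, limma-voom 0, and edgeR without the filter on low counts 19.

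**Figure D4:**
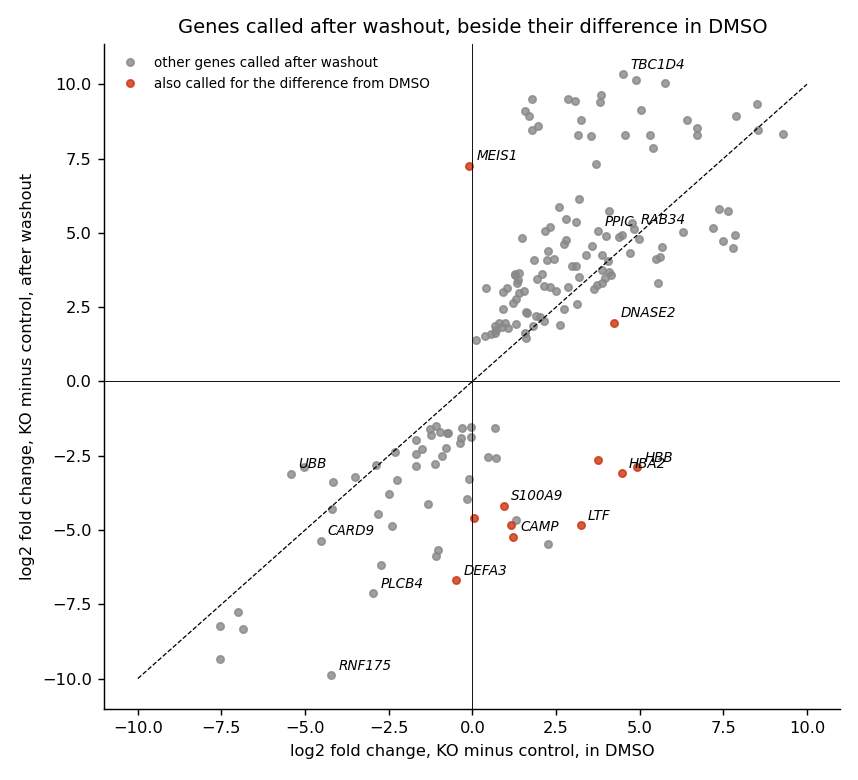
Log2 fold change, KO minus control, of the 173 genes called after washout (vertical axis) beside the same difference in DMSO libraries (horizontal axis). The dashed line marks equality, and red points are the 11 genes whose difference itself differed between washout and DMSO. Fitted values of genes without a read in 1 genotype depend on the prior count. MEIS1 stands at −0.1 in DMSO and 7.25 after washout.

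The genes moved by the drug were taken from control libraries that do not enter the washout comparison: 1829 genes that fell by more than 1 on the log2 scale in 96 h and 1208 that rose by more than 1, each with an adjusted p under 0.05. Without the limits on size the drug lowered 14.6% and raised 9.58% of the genes tested in control cells, 24.2% in all. After washout 25 of the 1829 lowered genes were higher in KO cells and 3 lower, and of the 1208 raised genes 13 were higher and 28 lower. That is 1.37% and 0.164% of the first list and 1.08% and 2.32% of the second, beside 0.918% and 0.44% of all genes tested. Seen from the calls, 21.4% of the higher genes were in the lowered list and 50% of the lower genes in the raised list. The 25 include MEIS1, HOXA10, HOXA11-AS, CCND2, CCNO, PPIC, RAB34 and TLCD3A. PPIC and RAB34 were among those already higher in KO cells in DMSO. The 28 include CSF3R, PECAM1, C3, and the S100, granule and globin genes described above.

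Over the whole lists, the median log2 fold change after washout was 0.315 for lowered and −0.431 for raised genes, against 0.063 for all genes. By replicate pair, on the log2(CPM + 1) scale, lowered genes had medians of 0.626, 0.25 and 0.291, raised genes −0.498, −0.217 and −0.152, and all genes 0.232, 0.046 and 0.027. In every pair the lowered genes lay above and the raised genes below the median of all genes, and pair 1, which holds control replicate 1, had the widest gap. Without control replicate 1 the medians of the lists were 0.027 and 0.087, with 0.089 for all genes, so that neither list stood apart from the rest. These lists were drawn again in that fit, and with the lists kept as they were the medians were 0.043 and 0.042. Without KO replicate 2 lowered genes had 0.037 and all genes −0.052, while raised genes kept a median of −0.366. Control replicate 1 also has the high mitochondrial share. With the mitochondrial genes left out of the fit, an alternative added after seeing the data, the medians of the lists were 0.276 and −0.462. Relative to their own DMSO libraries, the lowered genes stood at a median of −1.05 in control and −0.66 in KO cells after washout. At the end of treatment these medians were −1.92 and −1.86. The list was drawn on the control DMSO and 96 h drug libraries, so its choice favours low control values in both comparisons. The KO values share no library with that choice, so the gaps between genotypes cannot be read as a difference in recovery.

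**Figure D5:**
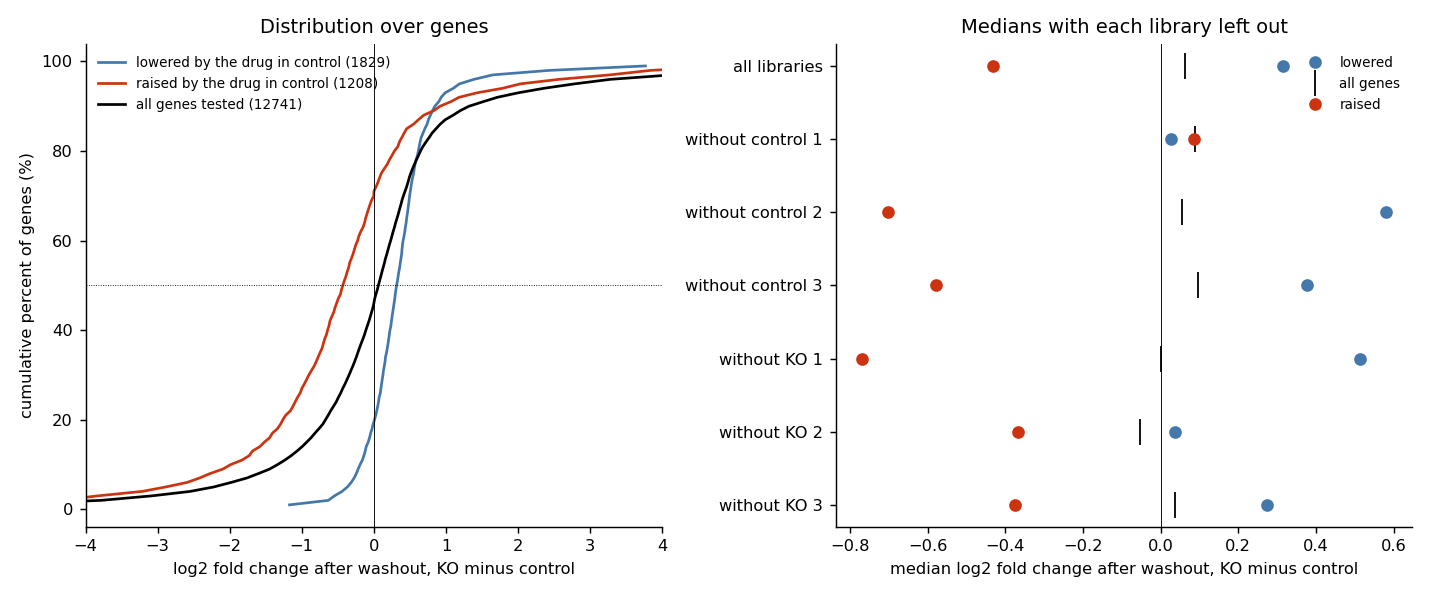
Left, cumulative percent of genes by log2 fold change after washout (KO minus control) for the genes lowered (blue) and raised (red) by the drug in control cells and for all genes tested (black). Right, medians of the same lists with all libraries and with each washout library left out in turn. The medians of 0.315 and −0.431 become 0.027 and 0.087 without control replicate 1, beside 0.089 for all genes.

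PRC1.1 acts at promoters rich in CG pairs, so CG pairs were counted in the 300 bases around each start site (250 before and 50 after, GRCh38). The 115 higher genes with such a window had a median of 31 CG pairs (quartiles 22 and 40), the 55 lower genes 8 (3.5 and 28), and the 11439 genes that were not called 27 (19 and 35). Among the falls, C3 and CAMP had 1 each and CARD9 8, whereas PLCB4 had 34, RNF175 29, and HBA1 and HBA2 36 each. These counts are a description of the windows and were not tested.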

How the data were processed

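RNA was measured in 24 MOLM13 libraries in 8 groups of 3, of which the 6 washout libraries are the subject here. The authors, by their own methods, used bbmap for trimming and STAR against GRCh38, and deposited raw counts of reads per gene, not normalized and with replicates kept apart. The labels' processing notes also name DESeq2. The strand setting is not given in the sources used here, and the labels do not say which of 2 named 3′ kits was used. 8 columns of the table, of another cell line, were not used, and a line that names no gene (at most 0.000815% of reads) was left out.

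A gene was tested if 2 or more libraries reached 2 CPM (12741 of 44429 genes). All groups entered 1 model in R 4.3.3 with edgeR 4.0.16, TMM scaling and the quasi-likelihood test, since they then share an estimate of spread, and a gene was called at a Benjamini-Hochberg adjusted p under 0.05. Alternatives used DESeq2 1.42.0, limma 3.58.1 (voom), other scalings and filters, a replicate block, the study's own limits and each library left out. The scripts were tested on simulated data.

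Same-numbered control and KO washout libraries deviated together from their group means (correlations over genes of 0.59, 0.58 and 0.40). The numbers, taken from the labels, were therefore read as pairs in the fits with the block and in the medians by replicate pair. The main fit did not use the pairing. No 2 replicates agreed within sampling noise. P-values of the main fit rest on a spread estimated over all 24 libraries, not on that of the 6 washout libraries alone. The paper calls the replicates biological, and the labels give only a number.

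The members and gene lists were chosen with earlier results of these data known. Genes named were the PRC1.1, MLL target, HOXA and murine-counterpart lists, the 12 largest rises and falls with a mean of at least 10 CPM and no overlap, up to 4 called members of every other list, and up to 6 genes per direction whose difference changed from DMSO. A gene without reads in 1 group was given a bound from 3 reads.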

Additional observations from a re-analysis of the deposited data

Results flagged for a closer look

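The difference between PCGF1/BCOR KO and control cells after washout was set against the same difference in DMSO by an interaction term in the edgeR model, and 11 genes passed at an adjusted p under 0.05 (0.0863% of those tested). MEIS1 had an interaction of 7.35 on the log2 scale: no difference was detected in DMSO, and the genotypes were far apart after washout. Of the genes with a negative interaction, HBB had −7.81, HBA2 −7.54, HBA1 −6.39, LTF −8.08, CAMP −6.43, DEFA3 −6.2, S100A12 −5.97, S100A9 −5.12 and S100A8 −4.64. All of these 9 had more of their control washout reads in control replicate 1 than its share of depth. Without that library their interactions were −3.89 (S100A8) to −7.37 (LTF), and 8 of the 9 still passed. DNASE2 had −2.25, with KO cells above control in both arms. With single washout libraries left out, S100A12 missed the threshold in 4 of 6 fits (without control replicate 1 or any KO library, adjusted p = 0.101 to 0.166), MEIS1 without control replicate 3 (0.0731), S100A8 without KO replicate 2 (0.0572) and DNASE2 without KO replicate 3 (0.067).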

How the results depend on the processing

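The comparisons below are KO against control unless stated. After washout the 173 genes became 444 with DESeq2, 377 without the filter on low counts, 409 with the replicate block, 292 at an adjusted p under 0.1 and a log2 limit of 0.5, and 10 with only the groups compared. With single washout libraries left out the count was 102 to 137. In DMSO the 155 genes became 284 with DESeq2, 401 with limma-voom, 287 with the block, 472 with only the groups compared, and 79 to 102 with a library left out. At the end of treatment the 101 genes became 296 with DESeq2, 178 without the filter, 248 with the block, 155 at the wider limits, 32 with only the groups compared, and 56 to 91 with a library left out. For the difference from DMSO the 11 genes became 22 with DESeq2, 20 without the filter, 18 with the block, and 9 to 15 with a library left out. For the change over washout the count of 0 became 3 with DESeq2 and 19 without the filter, and stayed at 0 with the block and in every fit with a library left out. The median of the raised genes, −0.431, was −0.622 with only the groups compared and −0.769 to 0.087 with a library left out, and that of the lowered genes, 0.315, was 0.027 to 0.581. With library size in place of TMM the median of all genes moved from 0.063 to 0.164, and the lists stood at −0.264 and 0.434. The causes were not tested. Of the 39 named genes called after washout, all had the same direction in every alternative; DESeq2, DESeq2's size factors, the block and the wider limits kept all 39 calls, and only the groups compared kept 8. The blocked fit added HOXA11 and MEF2C. These 2 alternatives were chosen after seeing the data: only the washout libraries with the block (168 genes) and mitochondrial genes left out (175 genes). The comparison at 48 h of washout was added then too. HOXA9 and PCGF1 rest on few reads in the control washout libraries.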
